A study of Homo sapiens with 28 samples.

Results

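Indole-3-acetic acid (IAA), the plant hormone used to trigger auxin-inducible degrons, was given for 24 h to SEM cells that hold no degron, together with doxycycline, and these cells were set against the same cells given DMSO. SEM is an established human B-cell acute lymphoblastic leukemia line with the MLL-AF4 fusion. The 4 libraries were chosen by their titles from the 28 RNA-seq libraries of the series, 2 of WT cells with IAA and 2 of WT cells without IAA. The series asks how expression changes when tagged CTCF, the zinc finger protein that anchors chromatin loops, is degraded, and WT cells carry untagged CTCF only. The titles name IAA alone, but the protocol label of these libraries and the methods give WT cells IAA with doxycycline, or DMSO. The doses are 500 µM IAA and 1 µg/mL doxycycline, in the units of the methods, where the label reads mM and mg/ml. Below, "with IAA" stands for IAA with doxycycline and "without IAA" for DMSO, and the parts of IAA and doxycycline in a difference cannot be told apart. The label text of the treated WT libraries speaks of CTCF degradation, but these cells hold no tag for it. The other 8 libraries of the 24 h set were CTCF-AID2 cells given 1 µM 5-Ph-IAA (4 libraries) and CTCF-AID2 cells without auxin (4 libraries), where 1 µM is the dose in the titles and the protocol label gives 10 µM for 24 h. CTCF-AID2 cells are SEM cells with endogenous CTCF fused to miniAID-mClover3, constitutive OsTIR1(F74G) and doxycycline-inducible wild-type OsTIR1, so the lines differed in the auxin given as well as in the degron. The remaining 16 libraries form a 6 h set without cells of this WT kind. Whether the libraries of a group are independent cultures is not stated, so the spread behind the p-values may reflect library preparation alone.

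The 4 WT libraries held totals of 45.7 to 53.1 M counts and 21650 to 22217 detected genes. The 15 genes that mark SEM cells, among them PAX5, FLT3 and PROM1, summed to 4005 and 3914 CPM (counts scaled to the normalized library size) with IAA, against 3909 and 3906 CPM without IAA, and none was at 0. Of 7 T and NK cell markers, CD3D, CD3E and CD3G held no counts, and neither did any of 4 erythroid markers. The 7 T and NK markers summed to 14.8 and 15.4 CPM with IAA, against 13.9 and 14.3 CPM without IAA. The 6 stromal, endothelial and epithelial markers summed to 32.5 and 35.1 CPM with IAA, against 37.6 and 34.8 CPM without IAA, with EPCAM at 0. The 8 myeloid markers summed to 51.3 and 48.3 CPM with IAA, against 65.8 and 65.9 CPM without IAA, with ELANE and S100A8 at 0. Of these, 3 passed the filter on low counts. Lysozyme (LYZ) and the receptor CSF1R fell by 0.35 and 0.67 on the log2 scale, while ITGAM had 0.18 and did not pass the test. In bulk RNA fewer cells of a type and less RNA per cell cannot be told apart. The part of these markers in the results below was not tested. Counts that were not whole numbers made up 2.73 to 2.82% of genes in WT libraries and 7.08 to 7.84% in CTCF-AID2 libraries, so levels were not compared between the lines, where line and processing cannot be told apart.

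In mammalian cells the aryl hydrocarbon receptor (AHR) binds indoles and other planar ring compounds. It is held in the cytoplasm by HSP90 and PTGES3, and once bound it enters the nucleus, pairs with ARNT and switches on xenobiotic metabolism genes such as CYP1A1. NRF2, the product of NFE2L2, escapes KEAP1 under oxidative or electrophilic stress and switches on glutathione and thioredoxin genes, while ATF4, the effector of the integrated stress response, switches on amino acid synthesis, amino acid uptake and tRNA charging genes after kinases such as GCN2 (EIF2AK4), PERK (EIF2AK3), HRI (EIF2AK1) or PKR (EIF2AK2) phosphorylate eIF2.

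With IAA, 67 genes were called higher and 87 lower, where a call needs an adjusted p of at most 0.05 and at least a 2-fold change in limma fitted over the 12 libraries of the 24 h set. These are 0.479% and 0.623% of the 13973 genes tested, 1.10% together. At the adjusted p alone 1305 genes rose (9.34%) and 1335 fell (9.55%). Most of those changes were small, with a median size of 0.28 on the log2 scale and 79.8% of them under 0.5, and the median over all genes tested was 0.015. The 2 libraries with IAA did not overlap the 2 without for any of the 154 called genes, nor for 59.2% of all genes tested. The spread behind the p-values was estimated over all 4 groups, and so mostly from the 8 CTCF-AID2 libraries. A fit of the WT libraries alone, over 13204 genes, called 68 higher and 82 lower. At its adjusted p 1146 genes rose and 1370 fell. The counts at the adjusted p were 576 higher and 686 lower without WT IAA replicate 2, 630 and 775 without WT no IAA replicate 1, and 619 and 810 without WT no IAA replicate 2. The called counts moved less. They lay between 64 and 79 higher and between 72 and 97 lower when each of the 12 libraries was left out. Below, list members that rose or fell are counted at the adjusted p, to be read beside 9.34% and 9.55% of all genes tested. The lists and their members were chosen with earlier results of these data known. Their counts therefore describe the lists and are no test of them. Where 4 counts are given below with each WT library left out, they are those without WT IAA replicate 1, WT IAA replicate 2, WT no IAA replicate 1 and WT no IAA replicate 2, in this order.

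AHR target genes rose. Of 12 listed targets, 6 passed the filter on low counts and all 6 passed the test as higher, 3 of them called, with a median log2 fold change of 1.13 beside 0.015 over all genes. Leaving out any of the 4 WT libraries reduced the count to 4, because TIPARP and NFE2L2 no longer passed. The median depended on the filter, at 0.168 over 10 members without one and 0.641 over 5 with a stricter one, and CYP1A1 passed the filter only through the 2 treated WT libraries. ALDH3A1, CYP1A2, CYP1B1, SERPINB2 and UGT1A6 held no counts in the WT libraries.

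CYP1A1, the monooxygenase that is the classic AHR target (ENSG00000140465.9, hg19 chr15:75011883-75017877), had 8.07 and 8.40 CPM with IAA, against 0.167 and 0.217 CPM without IAA. Both treated libraries lay far above both untreated ones. In reads this was 799 over the treated pair against 20 over the untreated pair, a ratio of 43 (95% exact interval 27.7 to 70.9, counting error only). The log2 fold change was 5.37 ± 0.444 (SE, adjusted p = 1.74e-06).

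AHRR encodes the repressor that competes with AHR for ARNT and is itself an AHR target. It had 24.4 and 26.3 CPM with IAA, against 8.24 and 8.34 CPM without IAA (log2 fold change 1.61 ± 0.0890 SE, adjusted p = 3.85e-08). NQO1, a quinone reductase shared by the AHR and NRF2 programs, had 182 and 184 CPM with IAA, against 56.9 and 53.6 CPM without IAA (1.73 ± 0.0627 SE), and its adjusted p of 2.44e-09 was the smallest of all genes tested. Neither gene's groups overlapped, which also held for 59.2% of all genes tested. On the deposited per-length scale, the mean level of NQO1 was 57.4 TPM with IAA and 20.9 TPM without, that of AHRR 2.08 and 0.83 TPM, and that of CYP1A1 1.27 and 0.03 TPM. Thus CYP1A1 had the largest ratio of the 3 and the lowest level.

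The remaining targets moved less. SLC7A5, the light chain of the large neutral amino acid transporter, had 223 and 245 CPM with IAA, against 149 and 151 CPM without IAA. TIPARP, an ADP-ribosyltransferase that feeds back on AHR, had 35.7 and 34.0 CPM with IAA, against 30.7 and 31.2 CPM without IAA, a log2 fold change of 0.17 (adjusted p = 0.0336). NFE2L2 also rose by 0.17, and these small rises missed the threshold under 9 and 7 of the alternative settings, TIPARP and NFE2L2 in that order.

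The receptor itself did not pass the test. AHR had 8.94 and 8.73 CPM with IAA, against 8.85 and 9.27 CPM without IAA, and the groups overlapped, while its partner ARNT averaged 54.4 CPM with IAA and 53.4 CPM without. Of the 6 receptor complex genes 3 fell and none rose. HSP90AA1, HSP90AB1 and PTGES3, the chaperones of the complex, fell by 0.45, 0.29 and 0.29 on the log2 scale.

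The promoters of AHRR and NQO1 are shown because they are the called AHR targets with the xenobiotic response element core TNGCGTG (N is any base, both strands searched) between 250 bases before and 50 bases after the start site. The windows are RefSeq sequences on GRCh38.p14, written 5′ to 3′ along the gene with the match in capitals, and AHRR has 2 windows in the table, of which the one with a match is given. In NQO1 the match reads on the opposite strand.
AHRR, chr5:321464-321763, + strand: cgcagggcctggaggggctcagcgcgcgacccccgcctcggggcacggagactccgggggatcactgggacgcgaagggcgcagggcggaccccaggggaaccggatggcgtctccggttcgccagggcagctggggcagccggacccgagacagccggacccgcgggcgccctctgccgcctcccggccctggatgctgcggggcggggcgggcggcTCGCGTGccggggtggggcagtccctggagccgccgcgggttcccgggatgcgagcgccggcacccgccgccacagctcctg
NQO1, chr16:69726511-69726810, - strand: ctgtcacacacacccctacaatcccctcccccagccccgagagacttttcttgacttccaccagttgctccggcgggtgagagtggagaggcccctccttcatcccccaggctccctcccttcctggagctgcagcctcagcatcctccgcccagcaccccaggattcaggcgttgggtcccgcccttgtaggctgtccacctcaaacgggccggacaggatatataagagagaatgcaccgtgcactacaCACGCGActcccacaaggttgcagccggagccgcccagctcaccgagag
The core was in 3 of the 6 tested AHR targets (AHRR, NFE2L2 and NQO1), in 9.61% of the 9802 tested genes matched to a window and in 5.51% of all 35116 windows. A match is a description of letters in this window, and CYP1A1 had none there.

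**Figure D1:**
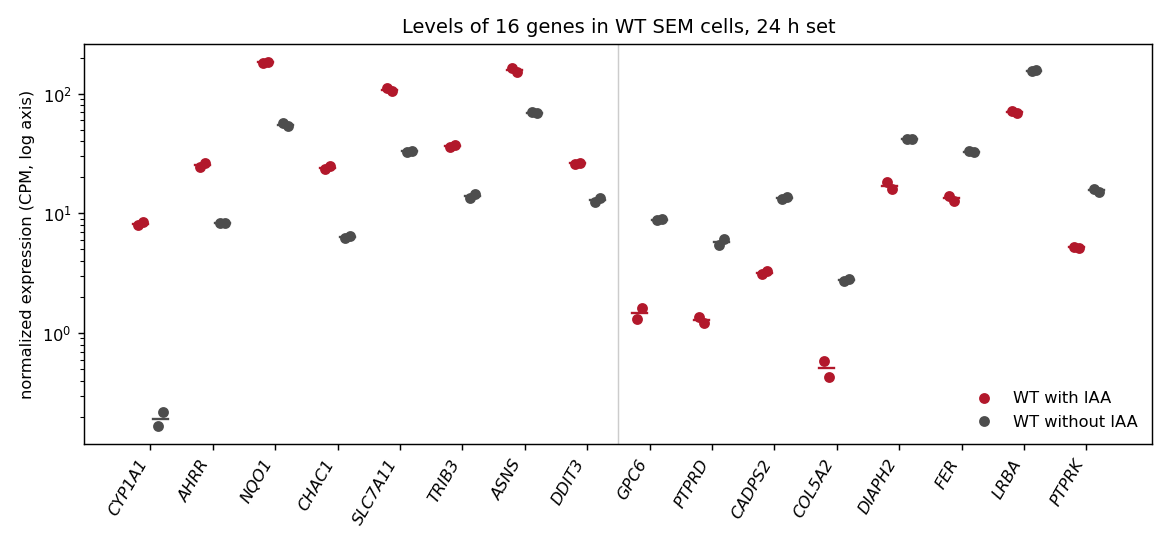
Normalized expression (CPM, log axis) of 16 genes in the 2 WT libraries with IAA (red points) and the 2 without (grey points), with a line at each mean. CYP1A1 to DDIT3 are higher with IAA (CYP1A1 at 8.07 and 8.40 against 0.167 and 0.217 CPM) and GPC6 to PTPRK are lower. The groups do not overlap for any of the 16, nor for 59.2% of all genes tested.

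NRF2 target genes rose in part. Of 29 tested genes of the antioxidant list 16 rose, 1 fell and 12 did not pass, with a median of 0.22, and the count that rose was between 11 and 15 without each WT library. The 4 called members were NQO1, SLC7A11, TRIM16L and OSGIN1. SLC7A11, the cystine/glutamate antiporter that feeds glutathione synthesis and is also an ATF4 target, had 112 and 105 CPM with IAA, against 32.9 and 33.1 CPM without IAA (log2 fold change 1.71 ± 0.0770 SE, adjusted p = 6.47e-09). OSGIN1, an oxidative stress-induced growth inhibitor, was scarce, with 89 reads over the treated pair and 19 over the untreated pair, a ratio of 5.05 (95% exact interval 3.05 to 8.77, counting error only). In both genes the treated libraries lay above the untreated ones.

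Most core enzymes of the list rose by less than 2-fold. GCLC and GCLM, the subunits of glutamate-cysteine ligase, rose by 0.35 and 0.40 on the log2 scale, thioredoxin reductase TXNRD1 by 0.36, glutathione reductase GSR by 0.22 (adjusted p = 0.0522 without WT no IAA replicate 1) and the small MAF partner MAFG by 0.57. The ferritin light chain FTL rose by 0.32 and averaged 971 CPM with IAA and 777 CPM without, whereas the heavy chain FTH1 averaged 231 and 210.2 CPM and did not pass (adjusted p = 0.0623). PIR, an iron-binding nuclear protein that is an NRF2 target, rose by 0.71, and the aldose reductase AKR1B1 fell by 0.14, which did not pass without any 1 of the 4 WT libraries. FTH1 and AKR1B1 were named after their values were seen. HMOX1 and SRXN1 did not pass the filter on low counts. The antioxidant response element core TGACNNNGC was in 7 of 22 matched members (31.8%), beside 19.4% of tested genes and 13.3% of all windows.

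Phase II enzymes and export pumps gave a median of 0.03, with 3 of 19 higher, 1 lower and 15 that did not pass. Of all genes tested 9.34% were higher and 9.55% lower. The epoxide hydrolase EPHX1 and the pump ABCC2 rose by 0.46 and 0.48, and the pump ABCC4 fell by 0.38. Without WT IAA replicate 2, WT no IAA replicate 1 or WT no IAA replicate 2, only 1 rise of this list remained in each case, and 2 remained without WT IAA replicate 1. The rise of ABCC2 did not pass without any 1 of the WT libraries (adjusted p 0.0588 to 0.245).

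ATF4 target genes rose more broadly. Of 25 tested stress regulators and effectors 22 rose and none fell, 8 were called, and the median was 0.78. The count was between 19 and 21 without each WT library. ATF4 itself had 529 and 522 CPM with IAA, against 353 and 341 CPM without IAA (log2 fold change 0.60 ± 0.0350 SE, adjusted p = 6.02e-08), so its own mRNA was higher in both treated libraries but below the 2-fold limit.

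The called genes of this list were VEGFA, CHAC1, JDP2, TRIB3, ATF5, SESN2, DDIT3 and INHBE. CHAC1, which degrades glutathione, had 23.5 and 24.8 CPM with IAA, against 6.19 and 6.53 CPM without IAA (1.92 ± 0.0860 SE, adjusted p = 6.47e-09). VEGFA, the angiogenic growth factor, had 35.1 and 35.9 CPM with IAA, against 12.7 and 12.3 CPM without IAA (1.51 ± 0.0578 SE, adjusted p = 2.56e-09). In each the treated libraries lay well above the untreated ones and the libraries of a group were close.

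JDP2, a repressor of the AP-1 family, had 18.3 and 19.2 CPM with IAA, against 7.61 and 7.42 CPM without IAA. SESN2, a leucine-binding inhibitor of mTORC1, had 20.1 and 22.7 CPM with IAA, against 8.98 and 8.74 CPM without IAA. ATF5, a translationally controlled relative of ATF4, had 31.4 and 37.3 CPM with IAA, against 14.6 and 14.9 CPM without IAA. All 3 were more than 2-fold higher. ATF5 shares exonic positions with IL4I1 and NUP62, and DDIT3 with MARS and MBD6, and since the use of strand in counting is not stated the reads of such pairs are uncertain.

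Below the 2-fold limit lay the phosphatase subunit PPP1R15A, which reverses eIF2 phosphorylation and rose by 0.73, the mTORC1 inhibitor DDIT4 (0.87), the glycoprotein hormone STC2 (0.93), the ER degradation factor HERPUD1 (0.86) and the bZIP factors CEBPB (0.81) and ATF3 (0.78). The eIF2 kinases did not rise. EIF2AK1 and EIF2AK2 fell by 0.21 and 0.18, while EIF2AK3 and EIF2AK4 had log2 fold changes of 0.04 and 0.00 with adjusted p of 0.539 and 0.986. Of all 15 pathway regulators 3 rose and 3 fell, with a median of -0.09, and without WT IAA replicate 2 or either untreated library none of the falls passed.

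The promoter of CHAC1 is shown because this called gene holds the C/EBP-ATF response element core TGATGNAA (both strands searched), in capitals, here reading on the opposite strand (RefSeq, GRCh38.p14).
CHAC1, chr15:40953221-40953520, + strand: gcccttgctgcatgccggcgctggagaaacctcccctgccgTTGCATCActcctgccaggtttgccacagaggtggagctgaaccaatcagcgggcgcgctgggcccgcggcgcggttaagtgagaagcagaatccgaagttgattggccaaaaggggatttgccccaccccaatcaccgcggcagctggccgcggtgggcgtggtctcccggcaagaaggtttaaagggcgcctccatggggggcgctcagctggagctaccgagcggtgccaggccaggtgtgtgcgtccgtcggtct
The core stood in 5 of 19 matched members of the list (26.3%), beside 2.69% of tested genes and 3.62% of all windows. For the other 4 members with a match, 28 bases are given on the strand that reads the core, to compare its flanks.
ATF3, chr1:212565206-212565233, + strand: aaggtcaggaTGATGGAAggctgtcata
JDP2, chr14:75427996-75428023, + strand: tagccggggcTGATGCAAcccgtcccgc
HERPUD1, chr16:56931956-56931983, - strand: gggcacgggcTGATGCAAcccgccgcgt
CEBPG, chr19:33374061-33374088, + strand: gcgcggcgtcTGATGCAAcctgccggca
All 5 genes rose, CEBPG by 0.34 and CHAC1 by 1.92 at the ends of their range on the log2 scale. No searched motif contains another, an antioxidant core that ends in TNGC can share bases with a xenobiotic core, and each was counted by itself.

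Cytosolic aminoacyl-tRNA synthetases, which charge tRNAs, rose in 12 of 20 cases and fell in 1, with a median of 0.21. The largest change was in WARS, the tryptophanyl-tRNA synthetase, which had 126 and 124 CPM with IAA, against 62.1 and 63.6 CPM without IAA (log2 fold change 1.00 ± 0.0603 SE, adjusted p = 8.57e-08, just under the 2-fold limit). SARS, the seryl enzyme, had 209 and 205 CPM with IAA, against 125 and 126 CPM without IAA. IARS, the isoleucyl enzyme and the most abundant of the list, had 794 and 745 CPM with IAA, against 570.5 and 566 CPM without IAA. The enzymes that did not pass included those for arginine, glutamine and aspartate, with RARS at -0.07, QARS at -0.04 and DARS at -0.04. FARSB fell by 0.22, but with an adjusted p of 0.131 without WT IAA replicate 2 and 0.0772 without WT no IAA replicate 1. None of the 17 mitochondrial synthetases rose and 3 fell, WARS2 by 0.44 and FARS2 by 0.36 among them, with a median of -0.07. Of these falls 3, 2, 3 and 1 passed with each WT library left out, and FARS2 had an adjusted p of 0.0511 without WT no IAA replicate 2.

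Amino acid transporters rose in 12 of 20 cases and none fell (1 without WT no IAA replicate 1), with a median of 0.25 and 2 calls, SLC7A11 and SLC6A9. SLC3A2, the heavy chain that pairs with SLC7A5 and SLC7A11, had 213 and 229 CPM with IAA, against 136 and 136 CPM without IAA. SLC1A5 and SLC1A4, carriers of neutral amino acids, rose by 0.61 and 0.70 on the log2 scale, and the cationic carriers SLC7A3 and SLC7A1 by 0.83 and 0.29. SLC7A8, SLC7A7 and SLC36A1, at -0.13, -0.10 and 0.00, did not pass.

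Genes of amino acid and one-carbon synthesis rose in 12 of 26 cases and fell in 3, with a median of 0.22. ASNS, asparagine synthetase, had 164 and 153 CPM with IAA, against 70.6 and 68.8 CPM without IAA (1.18 ± 0.0542 SE, adjusted p = 7.17e-09). GPT2, the mitochondrial alanine transaminase, had 92.6 and 99.3 CPM with IAA, against 44.2 and 43.7 CPM without IAA (1.12 ± 0.0532 SE). These 2 were the calls of the list. The serine pathway rose at each step: PHGDH by 0.81, PSAT1 by 0.90 and PSPH by 0.63 on the log2 scale. In one-carbon metabolism the mitochondrial SHMT2, MTHFD2 and MTHFD1L rose by 0.62, 0.63 and 0.28, the cytosolic MTHFD1 fell by 0.30 and the cytosolic SHMT1 had 0.02 (adjusted p = 0.839). The mitochondrial aspartate transaminase GOT2 fell by 0.22 while the cytosolic GOT1 rose by 0.48.

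The ASNS promoter is shown as that of the called enzyme with the same C/EBP-ATF core (RefSeq, GRCh38.p14, 1 of 2 windows in the table).
ASNS, chr7:97872359-97872658, - strand: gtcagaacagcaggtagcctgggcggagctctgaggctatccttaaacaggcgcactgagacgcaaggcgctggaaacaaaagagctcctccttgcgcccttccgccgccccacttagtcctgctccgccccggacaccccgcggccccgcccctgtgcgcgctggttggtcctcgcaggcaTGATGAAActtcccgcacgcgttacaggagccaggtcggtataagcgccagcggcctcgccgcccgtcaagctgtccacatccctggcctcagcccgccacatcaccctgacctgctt
In the synthetases, transporters and synthesis genes, 5 of 12 (41.7%), 6 of 18 (33.3%) and 4 of 17 (23.5%) matched members held the core. The next windows, again of 28 bases, set genes that rose beside BCAT1, the branched-chain transaminase, which holds the same core and did not change beyond the test (1538 CPM with IAA and 1528 CPM without, log2 fold change 0.01, adjusted p = 0.948).
IARS1, chr9:92293693-92293720, + strand: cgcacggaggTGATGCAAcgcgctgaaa
CARS1, chr11:3057408-3057435, + strand: tcctagaatcTGATGCAAccgccgcccc
SLC1A5, chr19:46784894-46784921, - strand: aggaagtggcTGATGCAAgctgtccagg
GOT1, chr10:99430805-99430832, + strand: ctgccgagaaTGATGCAAccaatgcaat
BCAT1, chr12:24949132-24949159, - strand: gtcttcctgcTGATGCAAtccgctaggt
IARS1 and CARS1 are the present symbols of IARS and CARS. Over all 264 tested genes with the core, 17.4% rose and 16.3% fell, with a median of -0.01, beside 9.64% and 10.6% of genes without it and a median of 0.01. The core therefore did not go with one direction over all genes.

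**Figure D2:**
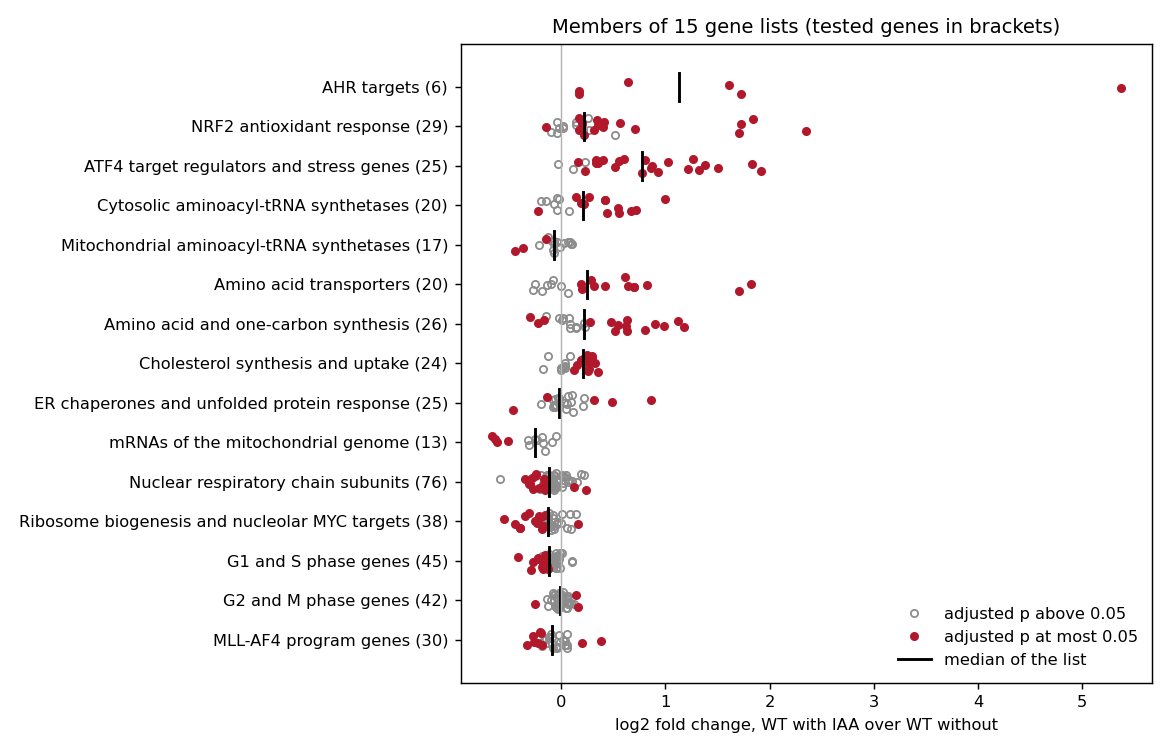
Log2 fold changes (WT with IAA over WT without) of the tested members of 15 gene lists, with filled points for adjusted p of at most 0.05, open points for the rest and a black line at each median. The AHR and ATF4 target lists lie to the right (medians 1.13 and 0.78, the first 0.168 without a filter on low counts) and the mRNAs of the mitochondrial genome to the left (median -0.25).

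Called rises outside these lists held several membrane and signaling genes. TMEM119, a transmembrane protein known from microglia and bone, had 21.2 and 21.6 CPM with IAA, against 6.97 and 6.45 CPM without IAA (1.67 ± 0.0668 SE, adjusted p = 2.98e-09). KCNK3, a background potassium channel, had 48.7 and 49.6 CPM with IAA, against 19.9 and 17.9 CPM without IAA (1.38 ± 0.0676 SE). HIC1, a transcriptional repressor, and GABRG1, a GABA-A receptor subunit, rose by 1.69 and 1.78 at levels under 2 CPM. The stress-induced ligands of the NK cell receptor NKG2D, ULBP1 and ULBP2, were named after their values were seen. ULBP1 had 10.7 and 9.57 CPM with IAA, against 4.58 and 3.77 CPM without IAA, and ULBP2 had 2.28 and 2.24 CPM with IAA, against 0.986 and 1.18 CPM without IAA.

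Some of the largest fitted rises rest on uneven libraries. RABGEF1 had 16 and 9.1 CPM with IAA, against 1.6 and 6.23 CPM without IAA, and ADORA2A had 1.09 and 1.06 CPM with IAA, against 0.707 and 0.0394 CPM without IAA. Their log2 fold changes lay between 0.93 and 2.89 and between 0.6 and 4.45 when single libraries were left out. Among noncoding RNAs, SNORD3D, a U3 snoRNA copy, had 1236 and 599 CPM with IAA, against 236 and 371 CPM without IAA, so the treated libraries differed widely between themselves, and its near-identical copies make its counts uncertain.

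Among 16 genes of the BCL2 family and death receptors 5 rose and 2 fell, with a median of 0.11. The BH3-only genes BMF, PMAIP1 and BBC3, which promote apoptosis, rose by 0.80, 0.67 and 0.86 on the log2 scale. BMF had 108 and 112 CPM with IAA, against 64.7 and 62.0 CPM without IAA. BCL2 and BCL2L11 fell by 0.13 and 0.19, and neither fall passed without any 1 of the 4 WT libraries. The count that rose was then 5, 3, 4 and 3, and the median lay between 0.046 and 0.153. Of 21 p53 targets 6 rose and 1 fell, with a median of 0.12, CDKN1A averaged 83.6 CPM with IAA and 77.0 CPM without (adjusted p = 0.103), MDM2 165 and 169.9 CPM (adjusted p = 0.720), and the count that rose was 1 without WT no IAA replicate 1, 2 without WT IAA replicate 2 and 2 without WT no IAA replicate 2.

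Cholesterol synthesis and uptake genes rose by small amounts in 14 of 24 cases and none fell, with a median of 0.21. CYP51A1, a sterol demethylase, and INSIG1, which restrains SREBP processing, rose by 0.26 and 0.30, while FDPS and HMGCS1 had 0.00 and 0.09 and did not pass. The count was 8 without WT IAA replicate 2, 7 without WT no IAA replicate 1 and 8 without WT no IAA replicate 2. Of 11 fatty acid synthesis genes 1 rose and 3 fell, ELOVL6, a fatty acid elongase, by 0.52, and 2, 2, 2 and 1 fell with each WT library left out. Of 23 immediate early genes 10 rose, FOS by 0.62 among them, and 3 fell, with a median of 0.16. There the count that rose was 6 without WT IAA replicate 2, 6 without WT no IAA replicate 1 and 5 without WT no IAA replicate 2, and 0, 3, 0 and 2 fell with each WT library left out.

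Transcripts of the mitochondrial genome took 0.215% and 0.204% of counts with IAA, against 0.310% and 0.295% without IAA. All 13 had log2 fold changes below 0, 4 fell, and the median was -0.25. MT-CO3, a subunit of cytochrome c oxidase, had 693 and 658 CPM with IAA, against 1064 and 1025 CPM without IAA (-0.63 ± 0.0445 SE, adjusted p = 3.25e-07). MT-CO2 and MT-CO1, the other mitochondrial subunits of that enzyme, fell by 0.61 and 0.51, and MT-ND3 fell by 0.66, while MT-ND2 and MT-ND4, of complex I, had -0.05 and -0.09 and did not pass. Of 76 nuclear respiratory chain genes 13 fell and 2 rose, beside 9.55% and 9.34% of all genes tested, with a median of -0.11. In this list 4 fell without WT IAA replicate 2 and 7 without either untreated library. The rises numbered 1, 1, 0 and 0 with each WT library left out. Of 12 genes of mitochondrial transcription and replication 3 fell, none rose, and TFAM, which packages mitochondrial DNA, averaged 145 CPM with IAA and 148 CPM without (adjusted p = 0.737). The falls of this list numbered 1, 1, 2 and 0 with each WT library left out, and 1 gene rose without WT IAA replicate 1.

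Among chaperones, HSPA5 (BiP), the main chaperone of the ER, had 102 and 97.8 CPM with IAA, against 135 and 141 CPM without IAA (-0.46 ± 0.0742 SE, adjusted p = 0.000702). Of the 25 genes of the ER and unfolded protein response list 3 rose, 2 fell and 20 did not pass, with a median of -0.02. Of all genes tested 9.34% rose and 9.55% fell. The falls of the list numbered 2, 1, 1 and 1 with each WT library left out. The mitochondrial chaperones HSPD1 and HSPE1 fell by 0.27 and 0.30. Of 10 cytosolic heat shock genes 2 rose and 3 fell, and with each WT library left out 1, 0, 2 and 0 rose and 2, 2, 1 and 1 fell. None of 6 metallothionein genes passed.

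Growth-linked lists leaned lower. Of 38 ribosome biogenesis and nucleolar MYC targets 14 fell and 1 rose, with a median of -0.12 and between 10 and 12 falls without each WT library, where the rises numbered 2, 0, 0 and 0. NCL, nucleolin, had 1038 and 1024 CPM with IAA, against 1379 and 1321 CPM without IAA, and NOLC1 fell by 0.34. MYC itself had 171 and 185 CPM with IAA, against 204 and 195 CPM without IAA (-0.16 ± 0.0440 SE, adjusted p = 0.0205), which did not pass without WT IAA replicate 1 or WT no IAA replicate 1 (adjusted p 0.146 to 0.148). Of 45 G1 and S phase genes 13 fell and none rose, with a median of -0.11 and 42 of them below 0, TYMS by 0.41 and MCM4 by 0.27, but 5 fell without WT IAA replicate 2, 6 without WT no IAA replicate 1 and 6 without WT no IAA replicate 2. Of 42 G2 and M phase genes 2 rose and 1 fell, MKI67 by 0.25, and with each WT library left out 0, 1, 0 and 0 rose and 0, 0, 1 and 0 fell.

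Genes of the leukemia's identity moved little. Of 31 B-lineage genes 2 rose and 5 fell, beside 9.34% and 9.55% of all genes tested, with a median of -0.05. Among those that fell were IKZF1 by 0.25, IL7R by 0.26 and BACH2 by 0.84. With each WT library left out 2, 0, 0 and 1 rose and 4, 4, 3 and 3 fell, and BACH2 had an adjusted p of 0.0928 without WT IAA replicate 2. Of 30 MLL-AF4 program genes 2 rose and 7 fell, with a median of -0.09, ZEB2 by 0.26 and MEF2C by 0.18, and HOXA9, MEIS1 and RUNX1 did not pass. With each WT library left out 1, 1, 0 and 1 rose and 7, 3, 5 and 5 fell, and MEF2C did not pass without WT IAA replicate 2 or WT no IAA replicate 1 (adjusted p 0.0776 to 0.108). CTCF had 140.4 and 138 CPM with IAA, against 149 and 149 CPM without IAA (-0.10 ± 0.0352 SE, adjusted p = 0.0562). CTCF passed the test as lower under 5 of the alternative settings, DESeq2 and the stricter filter among them (adjusted p 0.0193 to 0.0451). Of 80 cytosolic ribosomal protein genes 4 rose and 4 fell, with a median of 0.01, and RPS19 had 509.7 and 661 CPM with IAA, against 464 and 300.5 CPM without IAA, a spread within groups close to that between them. The rises of this list numbered 3, 1, 2 and 3 with each WT library left out, and RPS19 did not pass without WT IAA replicate 2 or WT no IAA replicate 2 (adjusted p 0.102 to 0.131).

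Most called falls were long genes. The 86 called lower genes with a position had a median span from first to last annotated base of 484 kb (1.44 to 2299 kb), against 28.2 kb over the 13568 tested genes with a position, and the 65 called higher had a median of 21.2 kb. Of the 143 tested genes of 500 kb or more, 99 fell at the adjusted p, 2 rose and 39 were called lower, with a median log2 fold change of -0.57 and 128 below 0. Without a filter on low counts the median was -0.347 over 355 such genes. Of the 2365 of 100 kb or more, 652 fell, 115 rose and 77 were called lower, with a median of -0.10. In 10 equal bins of span the longest bin, from 151 kb, held 76 of the called lower genes (5.6% of its genes) and had a median of -0.153.

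GPC6, a glypican of the cell surface (hg19 chr13:93879060-95060274, 1181 kb), had 1.31 and 1.63 CPM with IAA, against 8.78 and 8.97 CPM without IAA (-2.59 ± 0.175 SE, adjusted p = 2.12e-07). PTPRD, a receptor tyrosine phosphatase of 2299 kb, had 1.37 and 1.22 CPM with IAA, against 5.47 and 6.11 CPM without IAA. CADPS2, which primes dense-core vesicles and spans 568 kb, had 3.11 and 3.30 CPM with IAA, against 13.1 and 13.6 CPM without IAA. In all 3 the groups stood far apart relative to the spread within them.

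The falls were not limited to scarce genes. LRBA, a BEACH-domain protein needed for CTLA4 recycling, spans 751 kb and had 72.1 and 68.5 CPM with IAA, against 154 and 159 CPM without IAA (-1.16 ± 0.0480 SE, adjusted p = 3.64e-09). The kinase FER (449 kb) had 13.9 and 12.8 CPM with IAA, against 33.0 and 32.5 CPM without IAA, and the formin DIAPH2 (920.3 kb) had 18.3 and 15.9 CPM with IAA, against 41.8 and 41.9 CPM without IAA. Yet the size of the fall was related to level. For this, 5 span bins were cut anew within each band of mean WT CPM. The longest bins began at 68 kb under 5 CPM, 85.6 kb from 5 to 20 CPM, 88.2 kb from 20 to 50 CPM and 98.8 kb from 50 CPM. In this order their medians were -0.131, -0.101, -0.079 and -0.068. Called lower were 54 of 672, 19 of 608, 4 of 633 and 2 of 801 genes.

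Long genes did not all fall. Named after their values were seen, RUNX1, a hematopoietic transcription factor of 1217 kb, had 189 and 191 CPM with IAA, against 198 and 211 CPM without IAA (-0.11 ± 0.0714 SE, adjusted p = 0.337). TBC1D5, a regulator of endosomal traffic of 1288 kb, had 92.4 and 93.4 CPM with IAA, against 138 and 138 CPM without IAA, a fall of 0.57. MTUS2, a microtubule-associated protein of 686 kb, had 2.04 and 1.69 CPM with IAA, against 0.856 and 1.06 CPM without IAA, a rise of 0.95 with an adjusted p of 0.0711 without WT no IAA replicate 1. Hence genes of like annotated span differed widely, and the length transcribed in these cells was not measured. The longest of 5 span bins over all tested genes with a position began at 87.5 kb. There the median was -0.074, -0.082 and -0.097 for the genes with the shortest, the middle and the longest exonic length. Of these 905, 904 and 905 genes, 21, 22 and 35 were called lower.

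A few called falls were short. DNAJC25-GNG10, a readthrough locus that shares exons with DNAJC25 and GNG10, had 0.152 and 0.177 CPM with IAA, against 3.31 and 6.88 CPM without IAA, that is, 16 against 527 reads and a ratio of 0.0327 (95% exact interval 0.0186 to 0.0536, counting error only). It did not pass without WT IAA replicate 1, WT IAA replicate 2 or WT no IAA replicate 2 (adjusted p 0.0635 to 0.174). Its counts depend on how reads were split among the overlapping genes.

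**Figure D3:**
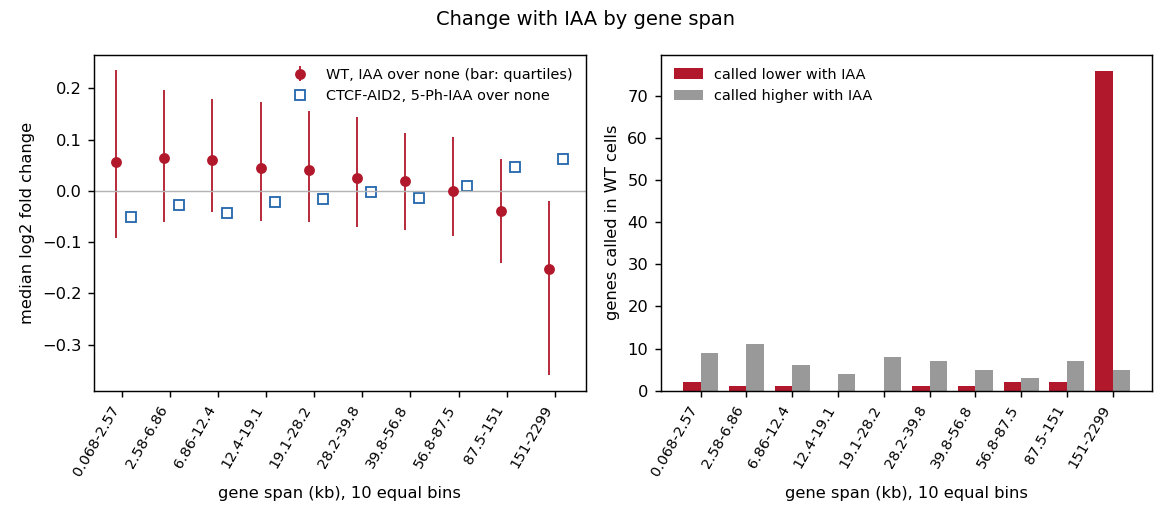
Left, median log2 fold change in 10 equal bins of gene span (kb), for WT cells with IAA over none (red circles, bars at the quartiles) and CTCF-AID2 cells with 5-Ph-IAA over none (open blue squares). Right, the number of genes called lower (red) and higher (grey) in WT cells per bin, of which the longest bin holds 76 called lower.

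The WT effect of IAA was set against the CTCF-AID2 effect of 5-Ph-IAA by a test of the difference between them. The difference is the WT log2 fold change minus the CTCF-AID2 one, so its sign does not give the size of either effect. It was called for 681 of 13973 genes (4.87%), positive for 319 (2.28%) and negative for 362 (2.59%). At the adjusted p the difference was positive for 4 of the 6 AHR targets and 21 of 29 NRF2 genes. It was also positive for 21 of 25 ATF4 targets and 18 of 20 cytosolic synthetases, beside 20.9% of all genes. Of these synthetases all 20 fell in CTCF-AID2 cells at the adjusted p, where 29.5% of all genes tested fell and 29.2% rose. In WT cells 12 of them rose, beside 9.34% of all genes. The list medians were 1.13 in WT and -0.13 in CTCF-AID2 cells for AHR targets, 0.78 and -0.10 for ATF4 targets, and 0.21 and -0.32 for synthetases. Because line, auxin, dose, doxycycline and degradation of CTCF differ together between the 2 effects, they cannot be told apart.

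CYP1A1 in CTCF-AID2 cells ranged from 0.215 to 0.345 CPM with 5-Ph-IAA (median 0.272), against 0.148 to 0.6 CPM without auxin (median 0.426), and its log2 fold change of -0.36 did not pass (adjusted p = 0.411). The difference between the effects was 5.73 (adjusted p = 3.15e-06). NQO1 ranged from 26.0 to 31.7 CPM with 5-Ph-IAA, against 25.3 to 26.3 CPM without auxin (0.10, adjusted p = 0.121), a difference between the effects of 1.62. ASNS ranged from 52.1 to 58.7 CPM with 5-Ph-IAA, against 64.8 to 69.1 CPM without auxin, and fell by 0.32, so the direction was opposite to that in WT cells. For VEGFA both effects were positive, 1.51 in WT and 0.53 in CTCF-AID2 cells.

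Of 143 genes of 500 kb or more, the difference was negative at the adjusted p for 109 and positive for 7, beside 19.3% and 20.9% of all genes. Their median log2 fold changes were -0.57 in WT and 0.06 in CTCF-AID2 cells. GPC6 ranged from 7.64 to 8.97 CPM with 5-Ph-IAA, against 9.82 to 11.9 CPM without auxin, and fell by 0.36 there. PTPRD ranged from 3.42 to 3.68 CPM with 5-Ph-IAA, against 3.20 to 3.69 CPM without auxin (0.03, adjusted p = 0.778). CADPS2 fell in both lines, by 2.05 in WT and by 0.56 in CTCF-AID2 cells. CTCF mRNA ranged from 249.8 to 256 CPM with 5-Ph-IAA, against 143 to 151 CPM without auxin, and rose by 0.77 there, a difference between the effects of -0.88.

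**Figure D4:**
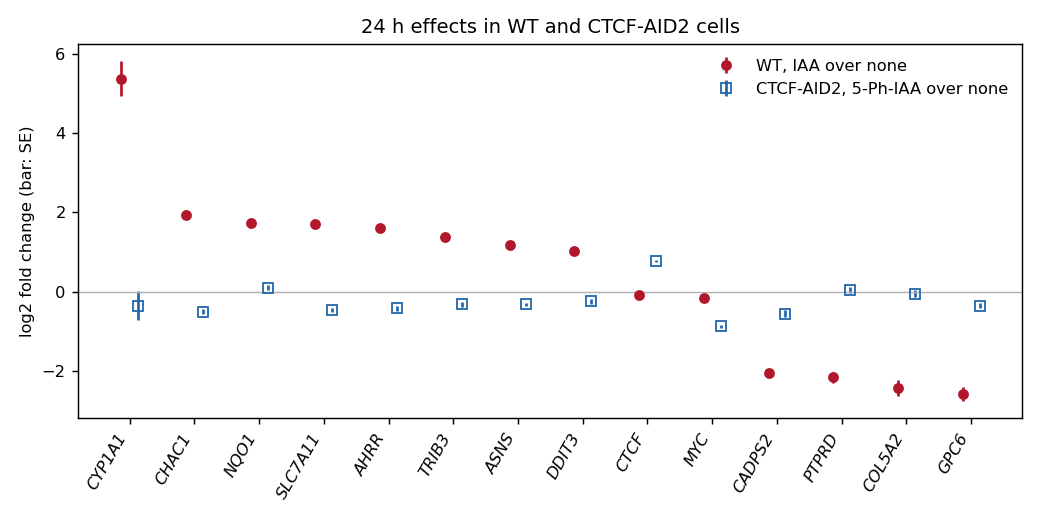
Log2 fold changes at 24 h of 14 genes in WT cells, IAA over none (red circles), and in CTCF-AID2 cells, 5-Ph-IAA over none (open blue squares), with bars at the SE. CYP1A1 lies at 5.37 in WT and -0.36 in CTCF-AID2 cells, and GPC6 at -2.59 and -0.36.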

How the data were processed

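RNA-seq libraries were made by the authors from SEM cells. The labels name a 3′ kit, while the study's methods describe stranded libraries of rRNA-depleted total RNA, and strand use in counting is not given in the sources used here. Per the submitters' processing notes and the methods, reads were trimmed with Trim Galore 0.6.3, aligned to hg19 with STAR 2.7.9a and quantified with RSEM 1.3.1. The deposited expected counts, as the authors made them with RSEM, are estimated reads per gene without normalization, and 92 spike-in entries, all at 0, were left out of 57820 genes. The deposited TPM values, which the authors' RSEM runs scaled by gene length and library, were used only to compare levels between genes.

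Expected counts were rounded and filtered to genes above 1 CPM in at least 1 of the 12 libraries of the 24 h set. limma 3.58.1 (voom, TMM factors from edgeR 4.0.16, R 4.3.3) was fitted with 1 mean per group, and p-values were adjusted over all 13973 genes by Benjamini-Hochberg. Each ± is an SE of the log2 fold change. CPM values use TMM-scaled library sizes, and intervals of read ratios are exact at 95%. The difference between the WT and CTCF-AID2 effects was a contrast in the same fit. Gene spans come from hg19 positions found for 96.05% of genes, and promoter sequences from RefSeq on GRCh38.p14. Alternatives were DESeq2 1.42.0, the quasi-likelihood test of edgeR, scaling by RLE factors or by library size only, no or a stricter filter, a replicate block, a fit of the WT libraries alone and a fit without each library. The procedure was tested on simulated data with 200 changed genes. Named genes were the 15 largest rises and falls among calls with a mean of at least 1 CPM, the 10 of each with the smallest adjusted p, the 5 largest gains and losses of CPM, and in each list the 5 with the smallest adjusted p, those called and key members. Other genes, such as list members given because they did not pass, were named after their values were seen. The members and lists were chosen with earlier results of these data known. Some members of the lists are counted but not reported here by name.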

Additional observations from a re-analysis of the deposited data

Results flagged for a closer look

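The effect of IAA in WT cells differed from that of 5-Ph-IAA in CTCF-AID2 cells for 14 genes chosen with earlier results known, by a limma contrast of the effects with adjusted p between 1.2e-09 and 3.15e-06. On the log2 scale the WT effect minus the CTCF-AID2 effect was 5.73 for CYP1A1, 2.03 for AHRR, 1.62 for NQO1, 2.43 for CHAC1, 1.51 for ASNS, 1.71 for TRIB3, 1.28 for DDIT3, 2.18 for SLC7A11 and 0.72 for MYC. It was -2.23 for GPC6, -1.49 for CADPS2, -2.18 for PTPRD, -2.39 for COL5A2 and -0.88 for CTCF. For MYC this came with a fall of 0.88 in CTCF-AID2 cells beside a fall of 0.16 in WT cells. Line, auxin, its dose, doxycycline and CTCF degradation cannot be told apart in these differences.

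Of 28 groups of 4 libraries checked for a value far from the others, 2 held one, and chance gives about 1 in 20 such groups. ASNS was at 58.7 CPM in CTCF-AID2 5-Ph-IAA replicate 4, the highest of its group, and COL5A2 was at 2.27 CPM in CTCF-AID2 no auxin replicate 2, the highest of its group.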

How the results depend on the processing

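No named gene past the threshold changed direction under the alternatives run. Medians close to 0 changed sign in some for 9 of 39 lists (phase II enzymes, tryptophan metabolism, ER chaperones, heat shock genes, mitochondrial transcription, cytosolic ribosomal proteins, fatty acid synthesis, G2 and M phase genes and histones), as did 7 values of 5 named genes, with adjusted p of at least 0.491. Without a filter on low counts 138 genes were called higher and 147 lower in WT cells (59 and 82 of them also called above), and 529 and 569 for the difference of effects (300 and 328 shared), over 31766 genes and with a median of all genes of 0.107. With a stricter filter the counts were 25 and 26 (24 and 26 shared), and 148 and 121 (all shared), over 10547 genes. Medians then moved: without a filter to -0.293 for the AHR receptor complex, 0.168 for AHR targets, 0.594 for ATF4 targets, 0.039 for cytosolic heat shock genes and -0.347 for genes of 500 kb or more, and with the stricter filter to 0.641 for AHR targets, 0.704 for ATF4 targets and -0.431 for genes of 500 kb or more, since other members entered or left. With 10 span bins the longest had a median of -0.153 and 5.6% called lower, and with a mean of at least 5 CPM 1.22% of the longest of 5 bins was called lower.

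Leaving out each library gave 64 to 79 higher and 72 to 97 lower calls, and 313 to 345 and 336 to 362 for the difference of effects. List medians ranged from 1.058 to 1.188 for AHR targets, 0.653 to 0.844 for ATF4 targets, 0.146 to 0.279 for amino acid and one-carbon synthesis, -0.035 to 0.055 for fatty acid synthesis, 0.059 to 0.141 for autophagy and lysosome genes, 0.046 to 0.153 for the BCL2 family and 0.072 to 0.257 for immediate early genes. The ends of these list ranges came from leaving out WT libraries.

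The labels number replicates alike, but differences between replicates of the 2 WT groups correlated at 0.0509 over 13973 genes and 0.1303 over those with at least 5 CPM, and with 2 pairs the numbers were not taken to pair the samples. With a replicate block 64 genes were called higher and 85 lower, and 894 and 951 passed the adjusted p, against 1305 and 1335. edgeR and DESeq2 each called 71 higher and 88 lower. Of 5853 values of named genes under alternatives, 338 lost the threshold, 59 gained it and 0 changed sign past it, ADORA2A, SNORA46, CEACAM6, RABGEF1, IER3 and DNAJC25-GNG10 being called genes that lost it in some. Where genes are low, depth limits these values: 20 called genes were under 1 CPM in their higher group.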

Other observations

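In the 6 h set, whose cells are degron lines, 8 libraries with IAA and 8 without gave values for the same genes. They are shown by their ranges and without a test. Here "with IAA" follows the titles, while the methods give such lines 5-Ph-IAA for 6 h and doxycycline to induce HA-tagged CTCF. Whether the libraries without IAA had doxycycline is not stated. Line, auxin, dose, time and induced CTCF differ together from the WT cells at 24 h, and the use of doxycycline may differ. Their parts in an order that is shared or opposite cannot be told apart. CYP1A1 lay between 0.144 and 0.337 CPM with IAA and between 0.136 and 0.661 CPM without. AHRR lay between 2.68 and 5.44 CPM with IAA and between 6.39 and 11.3 CPM without, the opposite order to that in WT cells at 24 h. NQO1 lay between 22.8 and 35.9 CPM with IAA and between 12.5 and 18.8 CPM without, the same order. TIPARP lay between 28.2 and 38.3 CPM with IAA and between 24.1 and 26.5 CPM without, also in the order of WT cells at 24 h. The ranges with and without IAA overlapped for SLC7A11 and for TRIB3. CHAC1 lay between 5.11 and 7.22 CPM with IAA and between 8.35 and 12.6 CPM without, ASNS between 55.5 and 66.8 CPM with IAA and between 58.5 and 65.4 CPM without, and GPC6 between 6.93 and 8.84 CPM with IAA and between 7.26 and 9.55 CPM without. Among the other long genes, PTPRD lay between 3.39 and 5.11 CPM with IAA and between 2.86 and 4.2 CPM without. CADPS2 lay between 2.69 and 4.77 CPM with IAA and between 2.09 and 2.93 CPM without. COL5A2 lay between 2 and 2.9 CPM with IAA and between 1.35 and 2.18 CPM without. Over the pooled lines the ranges of these genes and of GPC6 overlapped. Within lines, with 2 libraries on each side, CADPS2 was higher with IAA in each line and COL5A2 in each deletion line. PTPRD was higher in the zinc finger 1 and RNA-binding region deletion lines. GPC6 was lower in the full-length and zinc finger 10 deletion lines. In the other lines the values of these genes overlapped.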
